A study of Mus musculus with 4 samples.

Results

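Mesothelial cells were sought in the injured mouse pancreas among sorted cells that are absent from the authors' table of EYFP-labelled cells. A cell outside that table, called unlabelled here, was taken as a member when it held at least 1 unique molecular identifier (UMI, 1 captured transcript) of 2 or more of Msln, Upk3b and Lrrn4. The members were thus chosen by the measured counts of these 3 genes. This rule found 109 cells among 7778 unlabelled cells, in a series of 21140 cells. The other 13362 cells belong to the EYFP table. The remaining 7669 unlabelled cells served as the comparison, and 630 of them with at least 2 of the fibroblast genes Pdgfra, Dpt and Lum served as a closer one.

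The mice were Ptf1aCre-ERTM;ROSAYFP/+ animals backcrossed into CD-1, in which tamoxifen given by gavage switches on EYFP in acinar cells through the acinar gene Ptf1a. All 4 mice carried both alleles and received tamoxifen and then caerulein, a secretagogue that causes pancreatitis, from 10 weeks of age. Injections went on for 2 weeks in 2 mice and for 4 weeks in 2 mice, and no uninjured mouse was analysed here. Cells sorted as EYFP+ were profiled by 10x Genomics 3' sequencing, so the mesothelial cells had passed a gate meant for another lineage. Why sorted cells are absent from the EYFP table is not given in the sources used here, and 16 members held an EYFP UMI. The members' share of the unlabelled cells is not their share of the tissue.

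Mesothelium is the single layer of flat cells that covers the pancreas and lines the peritoneal cavity. It holds both epithelial features, such as keratins and a mucin-rich surface, and mesenchymal ones, such as vimentin and the transcription factor Wt1. Mesothelial cells secrete a lubricating fluid, complement and growth factors, and they can turn into matrix-producing cells after injury.

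After 2 weeks the members numbered 23 and 27 cells per mouse, and after 4 weeks 34 and 25. Their summed counts were 258800, 293524, 284942 and 253639 UMIs, and all levels are given as CPM, the counts of a gene scaled to a common total of these sums, in that order of mice. The median member held 10264, 9376, 7793 and 8866 UMIs, against 4942, 5050, 3499 and 3076.5 in the remaining unlabelled cells. Over all cells the 4 libraries held between 72459531 and 103610807 UMIs. No barcode was shared among the members, although 67 barcodes occurred in more than 1 mouse among all cells, 1 of them that of a member. Xist was at 792, 654 and 495 CPM in the members of the first 3 mice and at 0 in the second 4-week mouse, whose members alone held the Y-linked Ddx3y, at 63.1 CPM. Sex and time therefore cannot be told apart in that mouse. The first 2-week mouse stood apart by its interferon-stimulated genes, whose values are given below.

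Of the 109 members, 86 held all 3 rule genes, 17 held Msln and Upk3b, and 6 held Upk3b and Lrrn4. Just inside the rule, the 23 cells with 2 rule genes had a median of 7 of 12 other mesothelial identity genes. Just outside it, the 246 cells with 1 rule gene had a median of 1, and 204 of these held only Msln. Cells with all 3 rule genes had a median of 11. Fibroblast-marker cells had a median of 2, at a median depth of 8083.5 UMIs that was near the 9234 UMIs of the members.

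The label held against the wider markers. When all unlabelled cells were clustered on their variable genes, 104 of the 109 members fell in 1 cluster of 111 cells. The 12 identity genes together took 5903 CPM of its counts, the highest of all clusters, and 797 CPM in the next. The rule genes were not barred from the variable genes, so this clustering is not independent of the rule. The 7 cells of that cluster that missed the rule were shallow, with a median of 1696 UMIs. When every cell was thinned to 1000 UMIs, 54 of the members met the rule.

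Among the 20 genes that led over the remaining cells, Lgals7, a galectin known from stratified epithelia, was at 846, 1049, 1063 and 887 CPM and Nkain4, a membrane protein that binds the sodium pump, at 846, 1172, 1463 and 1084. Cav1, the coat protein of caveolae, was at 881, 1141, 1183 and 725 CPM and at no more than 11.3 in fibroblast-marker cells.

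For the genes that chose the members, levels are a description without a test. Upk3b, a uroplakin of the apical membrane, was at 1306, 1731, 1579 and 1348 CPM in the members and at no more than 1.41 CPM in the remaining unlabelled cells of any mouse. Msln, mesothelin, a surface protein anchored to the membrane, was at 668, 1601, 1148 and 1348 CPM, lowest in the first 2-week mouse. Lrrn4, a leucine-rich repeat membrane protein, was at 355, 324, 284 and 272 CPM and had no UMI in any fibroblast-marker cell. Upk3b was present in every member, Msln in 103 and Lrrn4 in 92.

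The stretches upstream of Upk3b and Lrrn4 are shown because both genes chose the members. Each runs over the 250 bases before the start of the gene, 5′ to 3′ on its own strand, from RefSeq on GRCm38.p6, at chr5:136038246-136038495 on the plus strand and chr2:132880863-132881112 on the minus strand. Capitals mark the letters GGAATG or their reverse CATTCC, the core to which TEAD factors are known to bind.
Upk3b: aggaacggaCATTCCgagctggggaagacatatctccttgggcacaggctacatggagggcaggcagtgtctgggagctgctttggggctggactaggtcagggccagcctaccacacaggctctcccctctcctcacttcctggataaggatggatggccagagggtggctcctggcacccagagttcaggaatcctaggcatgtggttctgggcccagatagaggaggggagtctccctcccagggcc
Lrrn4: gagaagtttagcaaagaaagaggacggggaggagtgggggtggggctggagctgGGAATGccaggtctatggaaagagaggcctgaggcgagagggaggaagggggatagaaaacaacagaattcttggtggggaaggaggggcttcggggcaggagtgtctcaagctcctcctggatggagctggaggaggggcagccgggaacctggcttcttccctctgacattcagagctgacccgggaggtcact
Both stretches held these letters once, and 12.6% of the 32851 such stretches available held them at least once. No such stretch was available for Msln. The core GTGGGAG of WT1 binding, searched on both strands too, was in neither and in 8.25% of all. Among 8 stretches of 7 identity genes, 2 held the TEAD letters and 0 the WT1 letters. A match in letters is a description and not a binding site.

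The other genes known for mesothelium followed the rule genes. All 12 genes of the identity list were higher by more than 1 log2 unit in 4 of 4 mice, both against the remaining unlabelled cells and against fibroblast-marker cells. Over all genes with a mean of at least 20 CPM, 8.39% were higher in this way against the remaining cells (5.04% lower). Against fibroblast-marker cells 4.46% were higher and 5.05% lower. The counts of higher and lower genes in the lists below stand beside these shares. Several identity genes recur in those lists and are counted there again. They are Muc16 (surface), Krt19 and Cldn15 (keratins and junctions), Wt1 and Bnc1 (regulators), Aldh1a2 (retinoid) and Rspo1 (growth factors). Ratios were taken within each mouse as log2 of CPM plus 10, which understates the change of low genes. The median of the list was 4.60 against the remaining cells, where that of all genes was 0.22. Against fibroblast-marker cells it was 4.57, and 5.10 with the 3 genes that had no UMI there set to their lower bound, where that of all genes was 0.05. Since the members were chosen as cells of this kind, these ratios describe them and were not tested.

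**Figure D1:**
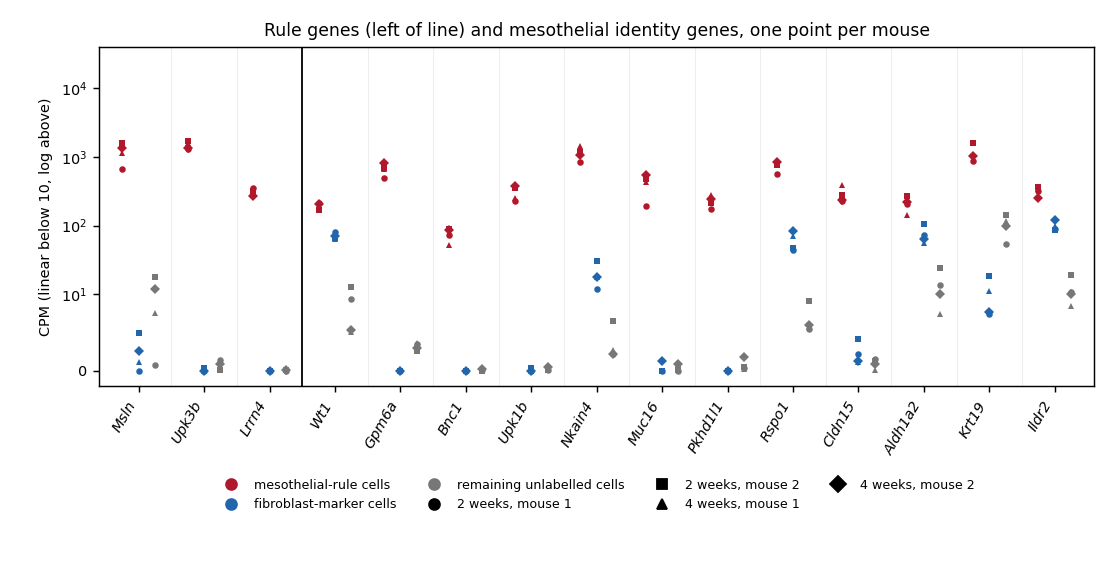
CPM (linear below 10, logarithmic above) of the 3 rule genes and the 12 identity genes, 1 point per mouse, in mesothelial-rule cells, fibroblast-marker cells and the remaining unlabelled cells. The members of all 4 mice lie above both comparison sets for every gene shown, and Wt1, Aldh1a2 and Ildr2 come closest in fibroblast-marker cells.

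Among regulators, Wt1, the transcription factor of mesothelium and kidney, was at 216, 170, 200 and 209 CPM in the members. Fibroblast-marker cells held 79.9, 66.2, 64.4 and 71.5 CPM of it, so that the sets did not overlap. Bnc1, the zinc finger protein basonuclin 1, was at 73.4, 88.6, 52.6 and 86.7 CPM and had no UMI in fibroblast-marker cells, a level at least 137-fold higher against a floor of 3 counts over that group. Tcf21, a factor of mesenchyme and stellate cells, was at 7.73, 6.81, 0 and 0 CPM against 42.5, 218, 102 and 51.1 in fibroblast-marker cells. Gata6 was at 182, 112, 140 and 67.0 CPM, and Gata4 did not exceed 19.7. Of 14 listed transcription factors, 7 passed the floor against the remaining cells, with 4 higher and 0 lower in 4 of 4 mice. Against fibroblast-marker cells 8 passed, with 2 higher, the identity genes Wt1 and Bnc1, and 2 lower. The median log2 ratio there was 0.52, where that of all genes was 0.05.

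At the surface, Gpm6a, a neuronal membrane glycoprotein also found in mesothelium, was at 498, 702, 674 and 824 CPM. Muc16, the large mucin known as CA125, was at 193, 480, 439 and 548 CPM, lowest in the first 2-week mouse. Podxl, an anti-adhesive sialomucin, was at 189, 160, 179 and 110 CPM, and Ezr, which ties membranes to actin, at 313, 671, 383 and 540. Prg4, the joint lubricant lubricin, was present in 26 members. Of the 11 genes of the surface list, 6 were higher in 4 of 4 mice against the remaining cells and 7 against fibroblast-marker cells, where 9 had passed the level floor in each comparison. Has1, a hyaluronan synthase, was held by 7 members.

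The epithelial side was seen in the keratins. Krt19 was at 862, 1571, 1084 and 1021 CPM and Krt18 at 352, 688, 428 and 859. Krt8 was at 193, 538, 291 and 473 CPM in the members and at 24.6, 50.6, 12.4 and 33.2 in fibroblast-marker cells. Against the remaining cells, which include other epithelium, Krt8 and Krt18 gave mean log2 ratios of -0.01 ± 0.44 and 0.13 ± 0.38 (SD, n = 4 mice), within the spread between mice. Krt7 was higher in 4 of 4 mice against both sets. Of 19 keratin and junction genes, 12 passed the floor against the remaining cells, with 3 higher and 1 lower in 4 of 4 mice. The median log2 ratio of the 12 was 0.06, where that of all genes was 0.22. The 3 higher genes were Krt7 and the identity genes Krt19 and Cldn15. Against fibroblast-marker cells 8 passed, with 6 higher and 0 lower. Cldn15, a claudin of tight junctions, was at 232, 283, 390 and 237 CPM against at most 4.11 in fibroblast-marker cells. Cdh1 was at 7.73, 30.7, 3.51 and 23.7 CPM, and Cdh2, N-cadherin, had 0 UMIs in the 109 members, which allows up to 2.75 CPM over their summed counts and a share of up to 2.75% of cells with a UMI.

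**Figure D2:**
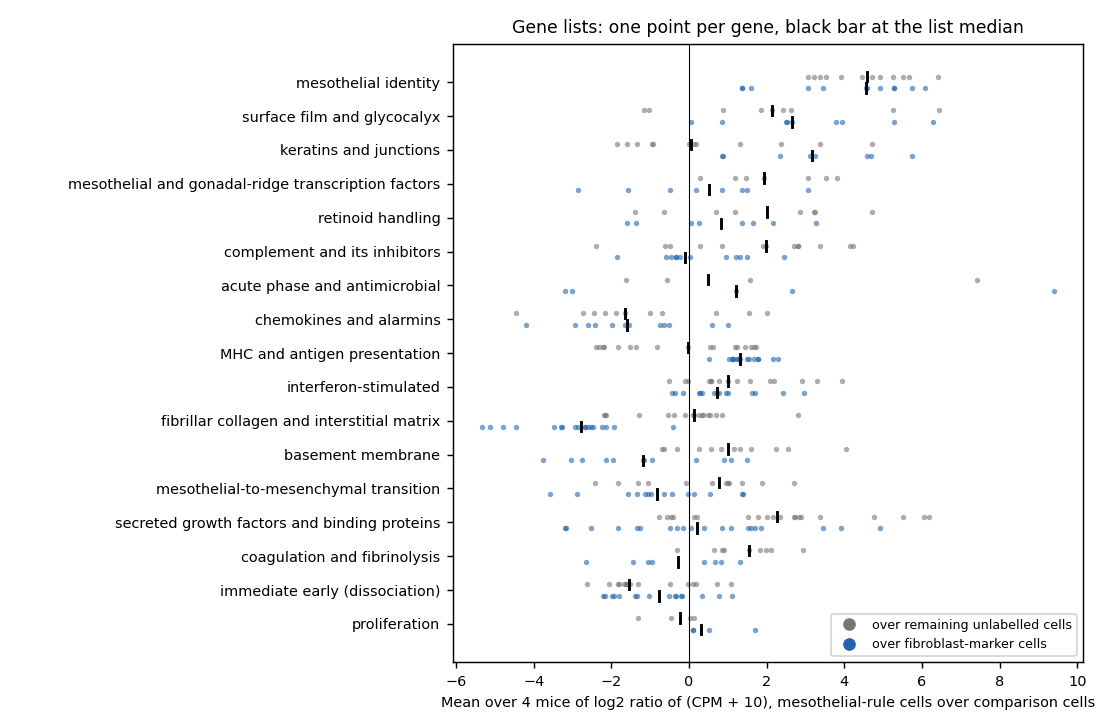
Mean over 4 mice of the log2 ratio of CPM plus 10 for every gene above the level floor, 1 point per gene, by gene list, over the remaining unlabelled cells and over fibroblast-marker cells, with a black bar at the median of each list. Identity genes have their bars at 4.60 and 4.57, and the interstitial matrix list has its bar at -2.78 over fibroblast-marker cells, or -2.69 without Lum, a gene that helped to choose those cells.

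Secreted factors were among the most abundant transcripts. Igfbp5, which binds insulin-like growth factors, was at 6472, 8013, 8875 and 7105 CPM in the members and at 640, 190, 696 and 689 in fibroblast-marker cells. Igfbp6 was at 5827, 8194, 9830 and 7696 CPM, again above the fibroblast-marker cells of every mouse. Fgf1 was at 784, 974, 1172 and 796 CPM against at most 29.4 in fibroblast-marker cells, a mean log2 ratio of 4.93 ± 0.40 (SD, n = 4). Rspo1, which enhances Wnt signalling, was at 560, 756, 874 and 848 CPM. Its relative Rspo3 was found in 1 member and was at 122, 70.3, 92.6 and 70.3 CPM in fibroblast-marker cells.

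Of 30 growth factor and binding protein genes, 20 passed the floor and 12 were higher in 4 of 4 mice against the remaining cells, with 0 lower. Against fibroblast-marker cells 4 were higher and 4 lower. Gas6, the ligand of the Axl receptor family, was at 1561, 1659, 1558 and 1885 CPM. Wnt4 was at 166, 238, 154 and 94.6 CPM, Fgf9 at 92.7, 157, 126 and 67.0, and Bmp4 at 143, 78.4, 137 and 51.3. Hgf, the hepatocyte growth factor, had 0 UMIs in members.

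Retinoid genes were part of the same profile. Aldh1a2, which makes retinoic acid, was at 205, 269, 144 and 221 CPM, against 73.9, 107, 55.4 and 63.9 in fibroblast-marker cells. Aldh1a1 was at 147, 177, 151 and 205 CPM. Rarres2, which encodes the attractant chemerin, was at 2403, 3635, 2211 and 3351 CPM. Of 15 retinoid genes, 8 passed the floor and 4 were higher in 4 of 4 mice against each comparison set.

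**Figure D3:**
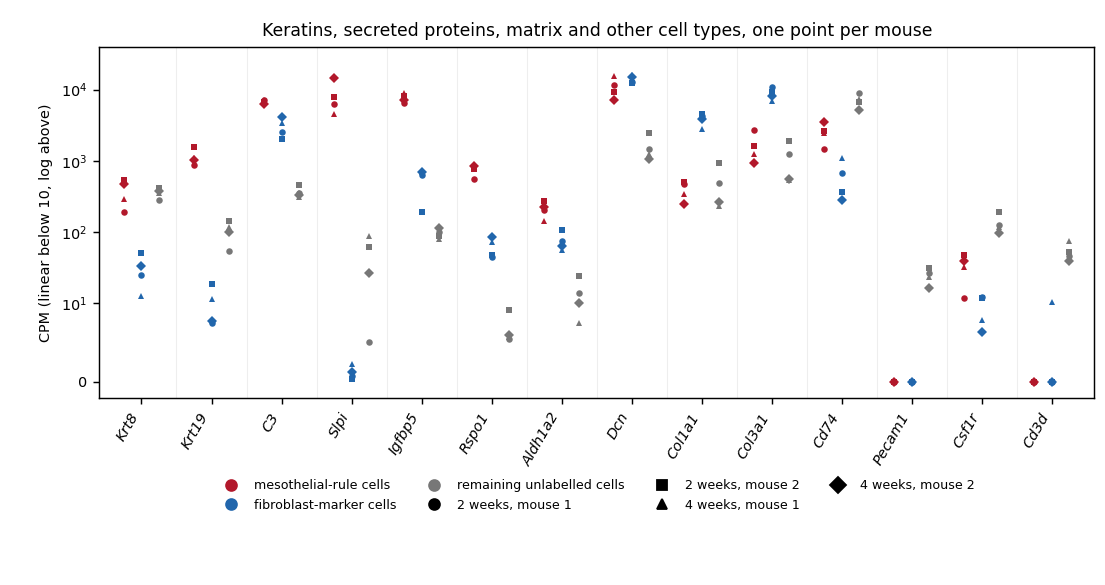
CPM (linear below 10, logarithmic above) of selected genes, 1 point per mouse, in mesothelial-rule cells, fibroblast-marker cells and the remaining unlabelled cells. Slpi lies between 4615 and 14371 in the members and at no more than 2.26 in fibroblast-marker cells, while Col1a1 and Col3a1 lie below the fibroblast-marker cells of every mouse and Pecam1 and Cd3d are at 0.

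Of 13 acute phase and antimicrobial genes, 7 had 0 UMIs in the members. Against the remaining cells 4 passed the floor, with 1 higher and 0 lower in 4 of 4 mice, and against fibroblast-marker cells 5 passed, with 2 higher and 2 lower. Of 19 chemokine and alarmin genes, 11 passed against the remaining cells, with 1 higher and 5 lower, and 12 against fibroblast-marker cells, with 0 higher and 4 lower. C3, the central complement component, was at 7048, 6752, 7223 and 6273 CPM in the members and at 2553, 2012, 3418 and 4145 in fibroblast-marker cells, with no overlap. C2 was at 742, 712, 474 and 651 CPM. Cfb was at 746, 218, 930 and 942 CPM, lowest in the second 2-week mouse. Of 16 complement genes, 13 passed the floor against the remaining cells, 8 were higher and 1 lower in 4 of 4 mice. Against fibroblast-marker cells 12 passed, with 2 higher and 0 lower.

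Slpi, a secreted inhibitor of leukocyte proteases, was at 6349, 7761, 4615 and 14371 CPM, highest in the second 4-week mouse. It varied widely from cell to cell, with 92 members holding at least 1 UMI and 1472 UMIs in the highest cell. Without 10 members with transcripts of other types, described below, the second 4-week mouse had 9965 CPM. Saa3, an acute phase protein, was at 483, 174, 214 and 78.9 CPM and was found in 33 members. Among chemokines, Cxcl1 had 0 UMIs, Ccl2 was found in 1 member, and Cxcl12 was at 15.5, 0, 3.51 and 0 CPM against 79.9, 59.2, 61.0 and 52.4 in fibroblast-marker cells.

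Of 19 antigen presentation genes, 17 passed the floor against the remaining cells, with 2 higher and 5 lower in 4 of 4 mice. Against fibroblast-marker cells 15 passed, with 2 higher and 0 lower. H2-K1, a classical class I chain, was at 2550, 2296, 3481 and 3982 CPM in the members, above both other sets in each mouse. H2-Aa, a class II chain, was at 440, 460, 449 and 647 CPM against 3705, 2369, 2805 and 2008 in the remaining unlabelled cells. Cd74, the class II invariant chain, was at 1484, 2610, 2467 and 3485 CPM, against 674, 363, 1086 and 282 in fibroblast-marker cells. The costimulatory genes Cd80 and Cd86 had 0 UMIs in the members. The macrophage list summed to between 23.2 and 940 CPM in the members and to at most 64.7 without the 10 members. That list was among those that chose the 10, so its fall was set by the choice. Cd74 was then at 1613, 2111, 2591 and 4191 CPM. Whether transcripts of other cells entered the Cd74 counts of the members was not tested.

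Interferon-stimulated genes were high in the first 2-week mouse in every cell set. Isg15, a ubiquitin-like protein, was at 1708, 164, 130 and 78.9 CPM in the members, at 844, 24.0, 79.0 and 81.1 in the remaining cells and at 1575, 52.7, 97.2 and 155 in fibroblast-marker cells. Others were high in the members of all mice. Gbp2, an interferon-induced GTPase, was at 742, 593, 530 and 666 CPM, against at most 199 in fibroblast-marker cells, and Bst2, tetherin, was at 4335, 2542, 2397 and 2874. Of 15 listed genes above the floor, 5 were higher in 4 of 4 mice against the remaining cells, where 8.39% of all genes were. Against fibroblast-marker cells 1 was higher, where 4.46% of all genes were.

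Interstitial matrix genes were lower than in fibroblast-marker cells. Leaving out Lum, which helped to choose those cells, 16 of the 17 listed genes above the floor were lower by more than 1 log2 unit in 4 of 4 mice, where 5.05% of all genes were. Against the remaining cells, 17 of 19 listed genes passed the floor, with 1 higher and 3 lower. The whole list summed to 18818, 15460, 19671 and 10854 CPM in the members and to 6422, 10640, 3931 and 3903 in the remaining cells, with Dcn the largest part in the members. Col1a1 was at 471, 508, 344 and 244 CPM in the members and at 4214, 4588, 2786 and 3828 in fibroblast-marker cells. Fn1, fibronectin, was at 92.7, 98.8, 94.8 and 11.8 CPM against 1960, 1338, 2297 and 2407. Dcn, the proteoglycan decorin, was the exception, at 11719, 9161, 15294 and 7258 CPM in the members and a mean log2 ratio of -0.43 ± 0.45 (SD, n = 4) that lay within the spread between mice. Efemp1, a fibulin of basement membranes and elastic fibres, was at 989, 1618, 1014 and 1167 CPM, above the fibroblast-marker cells of every mouse. Of 15 basement membrane genes, 12 passed the floor against fibroblast-marker cells, with 1 higher and 5 lower in 4 of 4 mice. Their median log2 ratio was -1.18, where that of all genes was 0.049. Against the remaining cells 12 passed, with 4 higher and 0 lower.

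Of 21 genes of the transition from mesothelium to mesenchyme, 12 passed the floor against the remaining cells, with 2 higher and 2 lower in 4 of 4 mice and a median log2 ratio of 0.78, where the median of all genes was 0.22. Against fibroblast-marker cells 14 passed, with 1 higher and 3 lower, and the median was -0.82, where that of all genes was 0.049. Snai1 was found in 2 members and Snai2 in 8. Acta2, smooth muscle actin, was at 69.6, 13.6, 35.1 and 35.5 CPM in 23 members, and Ccn2, a matricellular growth factor, was in 3. Vim was at 1557, 2460, 1874 and 1987 CPM, with a mean log2 ratio to fibroblast-marker cells of 0.12 ± 0.28 (SD, n = 4). The proliferation genes Mki67 and Top2a were found in 2 members and 1 member. Immediate early genes, which dissociation can raise, were lower than in the remaining cells for 5 of 16 genes in 4 of 4 mice, and higher for 0.

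Transcripts of other cell types were present in the members. Acinar enzymes summed to 25104, 4269, 10813 and 18101 CPM, and the acinar gene Ctrb1 was found in 109 of 109 members. The enzymes were lower than in the remaining cells in 4 of 4 mice for all 24 genes above the floor and for 0 against fibroblast-marker cells. The gastric-type epithelial genes Tff2 and Gkn3, chosen after their values were seen, were found in 97 and 91 members. The epithelial marker list summed to 2720, 1370, 3625 and 22985 CPM, and in 10 members a list of another type took over 1% of the UMIs: 7 epithelial, 2 macrophage and 1 endocrine. The acinar and fibroblast lists were not used for this choice, so members other than these 10 also hold transcripts of those types. Of the 10, 5 held EYFP UMIs, with 20290 to 30293 UMIs in all. Without the 10 members the epithelial list summed to 634, 768, 1099 and 1504 CPM, the acinar list to 11675, 2228, 4466 and 5472 and the fibroblast list to 14172, 11332, 17256 and 9445. The epithelial list itself chose 7 of the 10, so the fall of its sum was set by the choice. Of the 16 members with an EYFP UMI, none held more than 5. The T and NK cell list had 6 of 7 genes at 0 in the members and the endothelial list 4 of 7, Pecam1 included. The endothelial list summed to 108, 98.8, 126 and 162 CPM in the members and to 11.9, 27.2, 15.8 and 14.1 in fibroblast-marker cells. In the remaining cells it summed to 189, 195, 141 and 97.2 CPM. Against those, 3 of its genes passed the floor, with 1 higher and 1 lower in 4 of 4 mice. Kdr was higher in 4 of 4 mice against both sets. The fibroblast list summed to 13192, 10606, 16365 and 8082 CPM, most of it Dcn, while its gene Dpt had 0 UMIs. Results were recomputed without the 10 members, without cells holding EYFP and with the acinar enzymes left out. With the enzymes left out, the genes called between 2 and 4 weeks stayed at 0, and the genes that differed in time effect from the remaining cells went from 24 to 19.

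The share of mesothelial cells among unlabelled cells overlapped between the time points. It was 1.33% (95% exact binomial interval 0.844 to 1.99%) in the first 2-week mouse and 1.61% (1.06 to 2.33%) in the second. The first 4-week mouse had 1.63% (1.13 to 2.27%) and the second 1.10% (0.711 to 1.61%). These intervals cover counting error only. The means were 1.47 ± 0.198% and 1.36 ± 0.376% (SD, n = 2 mice each), a difference of -0.107 percentage points with p = 1 in a two-sided exact permutation test, which cannot go below 0.333 here. The difference changed sign without the second 2-week mouse, to 0.0335, and without the second 4-week mouse, to 0.159. With every cell thinned to 1000 UMIs the 2-week mice had shares of 0.635% and 0.954%, and the 4-week mice 0.623% and 0.614%, so that both 2-week mice lay above both 4-week mice. That difference was -0.176 percentage points, with p = 0.333 in the same exact permutation test.

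Between 2 and 4 weeks, no gene of the 4318 tested in the members passed an adjusted p of 0.05 (0.0% called, edgeR quasi-likelihood test). DESeq2 also called 0. At an unadjusted p under 0.05, edgeR gave 156 genes and DESeq2 35. Of the 156, 85 were higher at 4 weeks (1.97% of genes tested) and 71 lower (1.64%). Nothing in the labels says more than that the mice were separate animals, 2 per time. All values below are therefore descriptions of 4 mice.

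For the identity genes, none of the 12 had an unadjusted p under 0.05 in edgeR, and their log2 differences, 4 weeks over 2 weeks, ran from -0.33 for Aldh1a2 to 0.61 for Muc16. For Wt1 the difference was 0.14 with a standard error of 0.26. This does not show that the levels were equal.

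Most interstitial matrix genes had lower values at 4 weeks, although none passed the adjusted threshold. Of 12 tested, 11 had a negative difference, 7 of these with an unadjusted p under 0.05 where 1.64% of all genes did, and the median log2 difference was -0.72. For 10 of the 12 both 4-week mice lay below both 2-week mice, which was so for 19.8% of all genes. DESeq2 gave 1 of 12 at an unadjusted p under 0.05, where it gave 35 of all 4318 genes. By edgeR it was 2 of 12 without members holding EYFP (128 of all 3517 genes, in either direction). Without the 10 members that held transcripts of other types it was 5 of 12 (165 of all 4002), with a median of -0.68. With 1 mouse left out the median log2 difference of the tested genes stayed negative. It was -0.75 without the first 2-week mouse and -0.62 without the second. Without the first 4-week mouse it was -0.93, and without the second -0.55. Without the low-count filter 17 of 19 had a negative difference, 9 of these with an unadjusted p under 0.05 in edgeR, and 1 passed. In that setting 575 of all 14320 genes had such a p in either direction, and 29 passed. The sum of the list was highest in the first 4-week mouse, at 19671 CPM.

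Col3a1, a fibrillar collagen, was at 2670 and 1618 CPM at 2 weeks and at 1228 and 934 at 4 weeks, a log2 difference of -0.94 with a standard error of 0.28 (edgeR adjusted p = 0.996). It was lower at 4 weeks in fibroblast-marker cells too, at 10912 and 9399 against 6830 and 8170 CPM, and in the remaining cells, at 1242 and 1891 against 532 and 550. The difference of the members minus that of fibroblast-marker cells was -0.55 for Col3a1, with an adjusted p of 1 in edgeR. Fibroblast-marker cells made up 9.13% and 14.6% of the unlabelled cells at 2 weeks and 6.27% and 4.21% at 4 weeks. Whether their transcripts entered the members' counts was not tested.

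H2-D1, a classical class I chain, was at 3253 and 2225 CPM at 2 weeks and at 4875 and 5244 at 4 weeks, with a log2 difference of 0.94 and a standard error of 0.22 (edgeR adjusted p = 0.996). Of the settings with 2 mice per time, it passed the threshold only without the low-count filter (edgeR adjusted p = 0.00306). With 1 mouse left out its log2 difference ran from 0.69 to 1.26. H2-K1 was at 2550 and 2296 and then 3481 and 3982 CPM. Of 15 antigen presentation genes tested, 10 had a positive and 5 a negative difference. At an unadjusted p under 0.05 in edgeR, 3 were higher and 1 lower, where 1.97% and 1.64% of all genes were. The median log2 difference of the 15 genes was 0.34. It was 0.43 without the first 2-week mouse and 0.27 without the second. Without the first 4-week mouse 12 differences were positive, and the median was 0.59. Without the second 4-week mouse 8 differences were positive and 7 negative, and the median was 0.039. In fibroblast-marker cells H2-D1 was at 1964 and 302 and then 1462 and 1509 CPM, so the 2-week mice differed most from each other there.

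**Figure D4:**
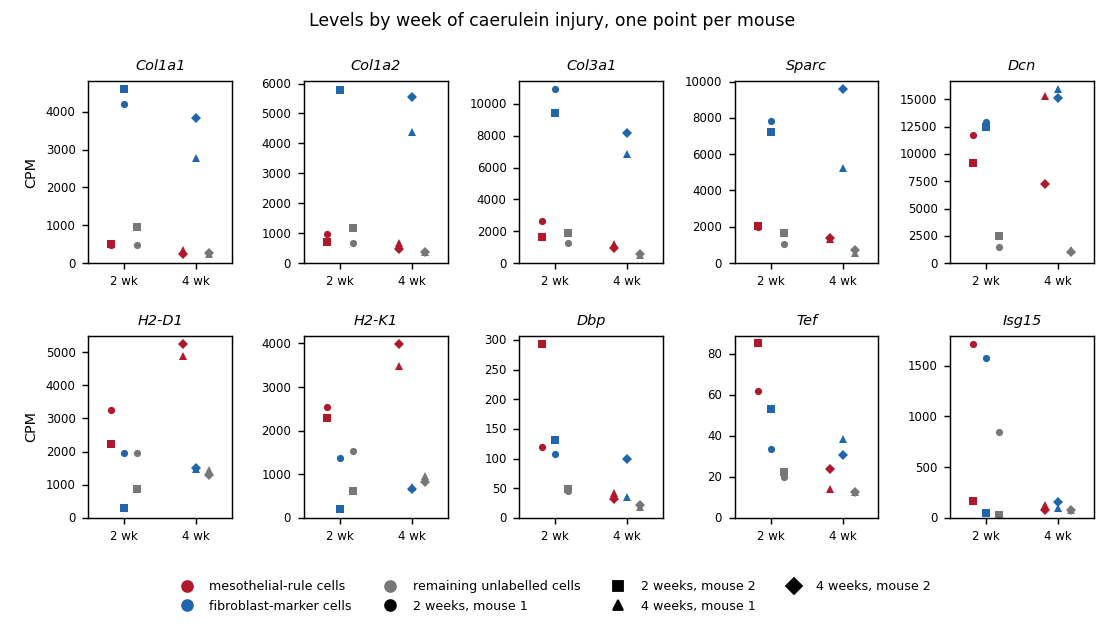
CPM (linear) of 10 genes at 2 and 4 weeks of caerulein, 1 point per mouse, in mesothelial-rule cells, fibroblast-marker cells and the remaining unlabelled cells. In the members Col3a1 is at 2670 and 1618 and then at 1228 and 934, and H2-D1 lies at 4875 and 5244 at 4 weeks, while Isg15 is high in the first 2-week mouse in all 3 cell sets.

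Dbp, a transcription factor under the circadian clock, was at 120 and 293 CPM at 2 weeks and at 42.1 and 31.5 at 4 weeks. The log2 difference was -2.42 with a standard error of 0.48 (edgeR adjusted p = 0.996). Of the settings with 2 mice per time, it passed only without the low-count filter (edgeR adjusted p = 5.93e-07). With 1 mouse left out the difference ran from -2.90 to -1.63. Tef, a relative of Dbp, was at 61.8 and 85.2 and then 14.0 and 23.7 CPM. Hlf, the third of this family, which was chosen after its values were seen, was at 50.2 and 61.3 and then 10.5 and 3.94. Other clock genes were looked up together with Hlf, and their values are not given here. Dbp was also lower in the remaining cells, at 45.2 and 48.4 and then 18.7 and 22.3 CPM. The hour at which each mouse was taken is not given in the sources used here.

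Among the other genes with the smallest p, Pigr, the receptor that carries IgA across epithelia, was at 27.0 and 6.81 CPM at 2 weeks and at 91.2 and 150 at 4 weeks. Only 15 members held it, and without the 10 members with transcripts of other types it was at 8.63 and 7.28 and then 7.61 and 24.2 CPM. Anxa9, an annexin, was at 7.73 and 17.0 and then 66.7 and 55.2 CPM, and Palld, an actin-binding protein, at 69.6 and 95.4 and then 28.1 and 23.7. None of these passed the threshold, at an adjusted p of 0.996 in edgeR. Of the settings with 2 mice per time, Pigr and Anxa9 passed only without the low-count filter (edgeR adjusted p = 4.53e-06 and 0.044), and Palld in none. Pigr was not among the genes tested without members holding EYFP or without the 10 members. With 1 mouse left out, the log2 difference of Pigr ran from 2.18 to 4.12.

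A few genes differed in time effect between the members and the remaining cells of the same mice. Of 14231 genes tested, 24 passed an adjusted p of 0.05 (0.169%, edgeR interaction term), and DESeq2 called 0. Clec3b, which encodes tetranectin, was at 811 and 320 CPM at 2 weeks and at 1804 and 1053 at 4 weeks in the members, and at 280 and 346 and then 244 and 208 in the remaining cells. The difference of the 2 time effects was 1.69 log2 units with a standard error of 0.31 and an edgeR adjusted p of 0.000158. For Clec3b this was 0.98 without the second 2-week mouse (edgeR adjusted p = 0.30) and 1.34 without the first 4-week mouse (edgeR adjusted p = 0.95). Isg15 and Ifit3 gave differences of -1.57 and -2.40, and of -2.65 and -3.65 without the first 2-week mouse. Without the second 2-week mouse they were -0.74 and -1.79, and neither passed the threshold there or with either 4-week mouse left out. The edgeR adjusted p of Ifit3 was 0.054, 0.37 and 0.22 in these 3 settings. Isg15 also missed the threshold without the 10 members that held transcripts of other types, at -1.25. Against fibroblast-marker cells only Gm43305 passed, 1 of 8111 (0.0123%), at an adjusted p of 0.0498 in edgeR. It was at 0 and 13.6 and then 172 and 35.5 CPM in 12 members, and without the 10 members that held transcripts of other types the difference was 1.25 (edgeR adjusted p = 1).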

How the data were processed

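Counts of UMIs per gene and cell were deposited by the authors as 1 table of all cells and 1 of EYFP-labelled cells. Per the submitters' processing notes, Cell Ranger 4.0.0, Seurat 3.2.3 and mm10 were used, with roles not given there. Cells were assigned to mice by the endings of their names, and 0 columns lacked a mouse. The members and gene lists were chosen with earlier results of these data known. The genes named were those of the lists, the 20 and 10 leading genes against each comparison set at 100 CPM or more, and those leading each time test (up to 3 each way where none passed). Raw counts were summed per mouse and tested with edgeR 4.0.16 (TMM, filterByExpr, quasi-likelihood, robust) with Benjamini-Hochberg adjustment. DESeq2 1.42.0 was the alternative. Interaction models had mouse as a block. On simulated data with 200 genes changed 4-fold, the time test recovered 141 with 2 false calls. The test against the remaining cells recovered 51 with 0 false calls, and that against fibroblast-marker cells 48 with 3. The simulation gave every gene the same spread between mice, so these counts do not measure the power on the real genes. Clusters came from scanpy 1.11.5 (2000 variable genes, 30 components, 15 neighbours, Leiden resolution 0.6). Scrublet called 32 cells, 0.151%, and so had not worked. As an alternative, the 905 highest scores were removed, 0 of them members.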

Additional observations from a re-analysis of the deposited data

Results flagged for a closer look

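The time effect of 9 named genes in the members differed from that in the remaining unlabelled cells of the same mice, by an edgeR interaction term with an adjusted p under 0.05. Values are log2 differences of the 2 effects, members minus remaining cells. They were 4.08 for Gm43305, 1.69 for Clec3b, 2.50 for Pigr, 4.61 for Ebf1 and 1.76 for Lgals2. The negative ones were -2.40 for Ifit3, -10.51 for Bhlhe41, -1.57 for Isg15 and -3.40 for Etv1. Without the 10 members that held transcripts of other types, Gm43305 was at 0.49 and Pigr at 0.50, and without cells holding EYFP they were at 0.48 and 0.41, all with an adjusted p of 1 in edgeR. In these 2 settings Isg15 was at -1.25 and -1.49 and also missed the threshold. Without cells holding EYFP, so did Lgals2, Bhlhe41 and Etv1, with adjusted p-values of 0.079, 0.079 and 0.71 in edgeR. Leaving out the first 2-week mouse gave 0.66 for Lgals2 and -1.43 for Etv1, neither past the threshold. Without the second 2-week mouse 6 of the 9 genes missed it: Clec3b (0.98), Pigr (1.5), Isg15 (-0.74), Ifit3 (-1.79), Gm43305 (9.29) and Bhlhe41 (-9.67). Without the first 4-week mouse 7 missed it, all but Pigr and Ebf1, and Etv1 was then at -11.00. Without the second 4-week mouse 7 missed it, all but Gm43305 and Clec3b. Over 15 settings the threshold was passed in 13 for Ebf1, 12 for Clec3b, 11 for Ifit3, 10 each for Gm43305, Pigr and Bhlhe41, 9 for Lgals2, 8 for Isg15 and 7 for Etv1. Those 15 settings include the fits with 1 mouse left out, where a lone mouse stands for 1 time point. Bhlhe41 was at 0 in the members of both 4-week mice, so its fitted value is no measure of size, and 12 members held it. The same holds for Gm43305 without the second 2-week mouse, since it was at 0 in the members of the first. Ebf1 was found in 6 members and Gm43305 in 12. Against fibroblast-marker cells the difference for Gm43305 was 4.85, and 1.25 without the 10 members. DESeq2 called 0 genes in either comparison.

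In the EYFP table, which the comparisons did not use, 22 of 13362 cells held at least 2 of the 3 rule genes. They carried the authors' labels MucinDuctal (8), Acinar/MucinDuctal (6), Acinar (2), Ductal-like (2), Tuft (2), EEC (1) and Tuft/EEC.Progenitor (1).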

How the results depend on the processing

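No paired analysis was possible because the labels give each mouse its own identifier and no number shared between the time points. Genes past the threshold between 2 and 4 weeks numbered 0 as reported, 29 without the low-count filter, and 22 to 56 with 1 mouse left out, where the lone mouse of a time point is assumed to vary like the others. For the difference from the remaining cells, 24 became 0 with DESeq2, 12 without cells holding EYFP, 38 in the leading cluster and 8 to 77 with 1 mouse left out (77 without the first and 54 without the second 2-week mouse, 12 without the first and 8 without the second 4-week mouse). For the difference from fibroblast-marker cells, 1 became 0 with RLE size factors, with DESeq2, without robust fitting, without EYFP, without the highest doublet scores and without the 10 members that held transcripts of other types. It became 9 without the low-count filter, 2 in the leading cluster and 1 to 46 with 1 mouse left out (46 without the first and 10 without the second 2-week mouse). The share difference ran from -0.373 to 0.159 with 1 mouse left out and reversed at 0.0335 and 0.159. The 10 members were defined after the data were seen. Counts of genes higher or lower against either comparison set stayed within 1.5 times in the alternatives run. With 23 to 34 cells per mouse, low genes rest on few UMIs, and 3 UMIs equal 10.2 to 11.8 CPM.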
